A study of Dugesia japonica with 15 samples.

Results

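The most abundant transcripts of the freshwater planarian *Dugesia japonica* that kept a similar level after amputation were followed across RNA interference and regeneration. Members were chosen from measured values. Of 38792 rows in the deposited table, 28999 carry a DJKW identifier, and these were ranked by their mean CPM (a row's count scaled to a library total of 1000000) over 15 libraries. Going down that ranking, a row was kept when the log2 ratio of the control RNAi 5 dpa median to the control RNAi intact median, each with 0.5 CPM added, lay between -0.4 and 0.4. The 200 members were reached after 310 rows. The 110 rows passed over had a comparable abundance, with 68 above the window and 42 below it.

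The libraries were made from polyadenylated RNA of groups of animals in 4 conditions. There were 3 libraries of DjTcf4 RNAi trunk fragments at 5 days post amputation (5 dpa; replicates 1, 3 and 4), 4 of DjTcf4 RNAi intact animals, 4 of control RNAi trunk fragments at 5 dpa and 4 of control RNAi intact animals. All animals, controls included, had therefore been treated with RNAi, and a difference between 5 dpa and intact also contains any difference between a trunk fragment and a whole animal. The labels give neither the sequence used for control RNAi nor the age of the animals, and do not say whether replicates were separate batches of animals. The p-values therefore reflect only how far these libraries vary, and some of that variation may be technical.

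Planarians replace lost tissue through neoblasts, dividing stem cells spread through the body, whose progeny build new tissue at the wound and remodel the old. RNAi by double-stranded RNA lowers a chosen transcript in the whole animal. Proteins of the TCF family bind DNA and, with the partner β-catenin, pass on Wnt signals, which in planarians help to set head and tail identity; whether DjTcf4 acts in this way was not examined here. In animal tissues the most abundant polyadenylated RNAs commonly encode ribosomal proteins, cytoskeletal proteins and enzymes of energy metabolism. The deposited table does not pair row IDs with gene names, so no function is assigned to any member, tissue markers were not checked, and the row of DjTcf4 is not known. Members are given by their rank in abundance, and some by their ID.

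Library totals ranged from 8136366 to 12224216 counts. All 200 members had counts in every library, the lowest being 1579, and all 200 passed the filter on low counts, so none was lost. One library stood apart on the members. DjTcf4 RNAi intact replicate 2 held the highest of the 15 values for 67 members and the lowest for 44, while no other library held more than 26 highest or 34 lowest values. It lay more than 1.5-fold above the median of the rest of its group for 16 members and more than 1.5-fold below it for 18. The other 14 libraries did so for at most 2 members in either direction. Such counts were not made over all genes, so they are not particular to the members. Over all tested genes, the spread of replicates in the edgeR fit below (biological coefficient of variation) was 0.213 with this library and 0.154 without it. Results that rest on this library are given with and without it.

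The members took a large and steady part of all counts. Their share was 27.9%, 28.6% and 28.4% in DjTcf4 RNAi 5 dpa replicates 1, 3 and 4, and 26.8%, 28.8%, 25.7% and 26.8% in DjTcf4 RNAi intact replicates 1 to 4. It was 28.6%, 27.2%, 27.9% and 28.7% in control RNAi 5 dpa replicates 1 to 4, and 27.5%, 25.9%, 27.2% and 25.7% in control RNAi intact replicates 1 to 4. The 5 dpa and intact libraries overlapped in both RNAi groups. In DjTcf4 RNAi animals the overlap came from intact replicate 2, whose share was the highest of all 15 libraries, and the other 3 intact libraries lay below every 5 dpa library.

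The mean share was 28.3% ± 0.365 in DjTcf4 RNAi 5 dpa libraries (SD, n = 3), 27.1% ± 1.29 in DjTcf4 RNAi intact libraries (n = 4), 28.1% ± 0.676 in control RNAi 5 dpa libraries (n = 4) and 26.6% ± 0.900 in control RNAi intact libraries (n = 4). Without replicate 2 the DjTcf4 RNAi intact mean was 26.5% ± 0.625 (n = 3). Abundance and the control ratio chose the members, so these shares are a description and were not tested. Library totals moved with them in the control groups. In each control group the libraries with the largest totals also had the highest shares. These were replicates 1 and 4 at 5 dpa, and 1 and 3 in intact animals. The DjTcf4 RNAi groups did not have this order. At 5 dpa the smallest total (replicate 3, 9580929 counts) went with the highest share, 28.6%. In intact animals the largest total (replicate 4, 12224216 counts) went with 26.8%, below the 28.8% of replicate 2. The part of depth in the shares was not tested. In bulk RNA, more cells of a type and more RNA per cell cannot be told apart.

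**Figure D1:**
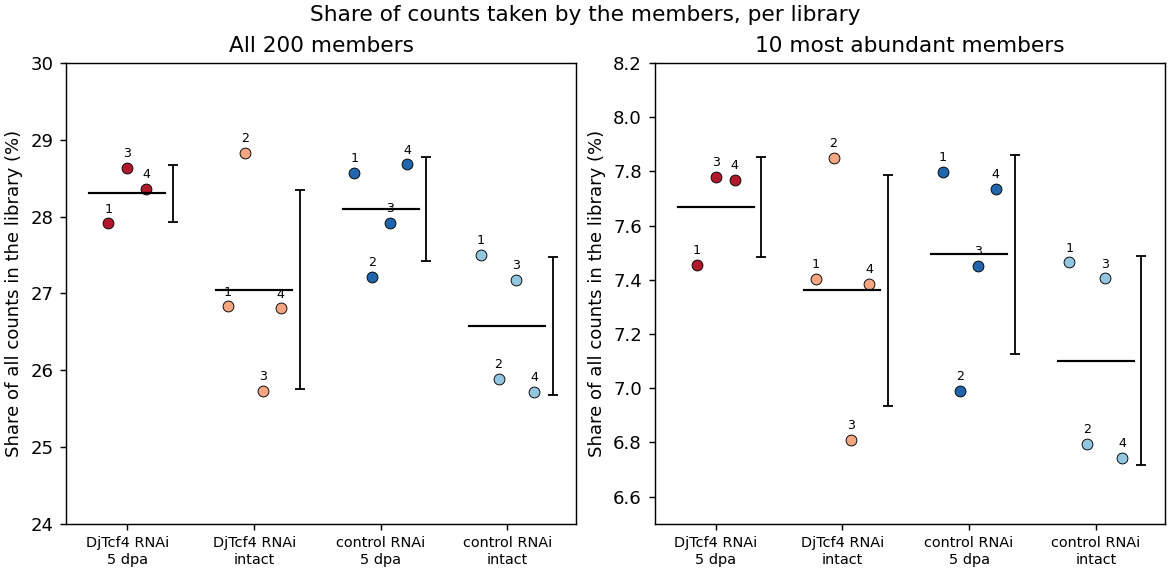
Share of a library's counts taken by all 200 members (left) and by the 10 most abundant (right), in percent, with axes that do not begin at 0. Each point is a library with its replicate number, lines are group means and bars are SD. All 15 libraries lie between 25.7% and 28.8% on the left and between 6.74% and 7.85% on the right, and DjTcf4 RNAi intact replicate 2 is the highest in both.

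The counts were unevenly divided among the members. For this, members were ordered by their mean CPM within each group and not by overall rank. The highest 36 in each DjTcf4 RNAi group, and 37 in each control group, held at least as many counts as all other members together. The 10 most abundant alone took 7.67% ± 0.185 of all counts in DjTcf4 RNAi 5 dpa libraries (SD, n = 3), 7.36% ± 0.426 in DjTcf4 RNAi intact, 7.49% ± 0.368 in control RNAi 5 dpa and 7.10% ± 0.386 in control RNAi intact libraries (n = 4 each). Mean CPM over all libraries fell away from 12442 for the first member to a median of 837 and to 451 for the last. Row lengths are not given, so these are shares of reads and not of molecules.

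The first member is also the most abundant DJKW row. It stood at 14300, 15457 and 13625 CPM in DjTcf4 RNAi 5 dpa libraries, against 11246, 10924, 10532 and 12441 CPM in DjTcf4 RNAi intact libraries. In control animals it stood at 15034, 12633, 13519 and 13318 CPM at 5 dpa, against 11598, 10622, 11350 and 10036 CPM when intact. All 7 libraries of fragments lay above all 8 libraries of intact animals.

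The member ranked 5 had the same order of groups. It stood at 9285, 9724 and 9125 CPM in DjTcf4 RNAi 5 dpa libraries, against 7286, 6131, 6818 and 7850 CPM in DjTcf4 RNAi intact libraries. Its values were 9127, 8209, 8529 and 8433 CPM in control RNAi 5 dpa libraries, against 7178, 6940, 7218 and 6451 CPM in control RNAi intact libraries. No library of intact animals reached the lowest library of fragments. Both members lay inside the window because it admits changes of up to 0.4 on the log2 scale, and their log2 ratios of control medians were 0.29 and 0.26.

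DJKW.16037, ranked 3, had nearly equal group medians. It stood at 8136, 9285 and 9522 CPM in DjTcf4 RNAi 5 dpa libraries, against 9628, 13009, 8197 and 9223 CPM in DjTcf4 RNAi intact libraries. In control RNAi it stood at 9504, 7895, 9029 and 10022 CPM at 5 dpa, against 10631, 7883, 10041 and 8158 CPM when intact. The groups overlapped throughout, and the log2 range of its 4 group medians was 0.05. Its replicates differed more than its groups, with a coefficient of variation (CV, SD over mean) of 14.8% in control RNAi intact animals.

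DJKW.22858, ranked 4, was lower in fragments by its medians. It stood at 7364, 7589 and 7992 CPM in DjTcf4 RNAi 5 dpa libraries, below all 4 DjTcf4 RNAi intact libraries, which held 9827, 10998, 9356 and 9151 CPM. Control RNAi 5 dpa libraries held 8480, 8153, 7812 and 9559 CPM, against 10483, 9669, 10242 and 9757 CPM in control RNAi intact libraries, again without overlap.

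The other 6 of the 10 most abundant members spanned both directions. DJKW.5248 (ranked 2) averaged 10788 ± 1145 CPM in DjTcf4 RNAi 5 dpa libraries (SD, n = 3), against 9396 ± 1203 in DjTcf4 RNAi intact libraries (n = 4). DJKW.24243 (ranked 6) averaged 6378 ± 805 CPM, against 6124 ± 1122 CPM, in the same 2 groups. The means differed by less than 1 SD for DJKW.24243, and by little more than 1 SD for DJKW.5248. The member ranked 7 averaged 6335 ± 649 CPM in DjTcf4 RNAi 5 dpa libraries, against 5353 ± 655 CPM in DjTcf4 RNAi intact libraries. DJKW.24270 (ranked 8) averaged 5601 ± 239 CPM in DjTcf4 RNAi 5 dpa libraries, against 5565 ± 883 CPM in DjTcf4 RNAi intact libraries. DJKW.4524 (ranked 9) averaged 3635 ± 222 CPM and DJKW.17520 (ranked 10) 3471 ± 481 CPM in DjTcf4 RNAi 5 dpa libraries, against 4880 ± 1040 and 4144 ± 1038 CPM in DjTcf4 RNAi intact libraries. In 3 of these 6 members, those ranked 8, 9 and 10, the SD of DjTcf4 RNAi intact libraries was above that of each of the other 3 groups by more than 1.5-fold.

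**Figure D2:**
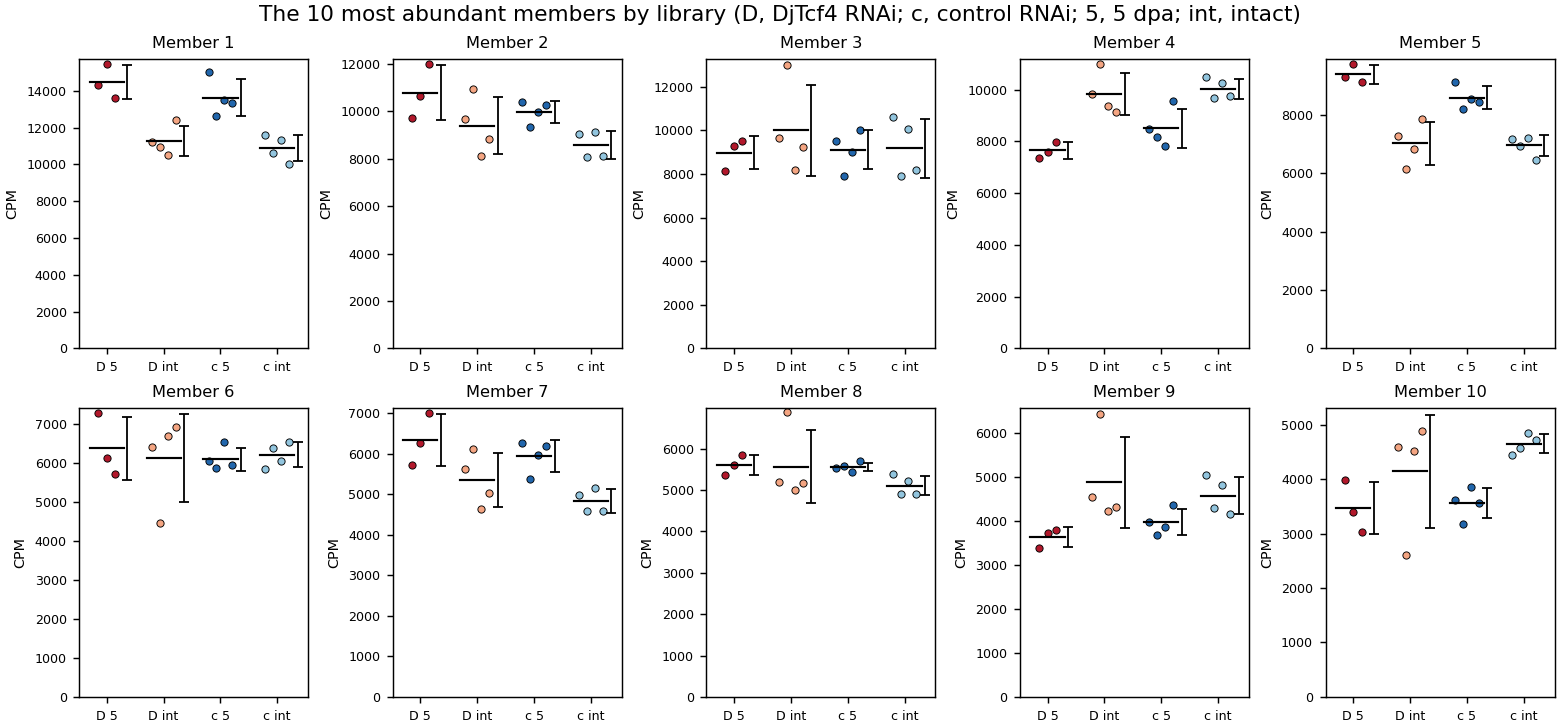
CPM of the 10 most abundant members in each library, from 0, with group means as lines and SD as bars. D is DjTcf4 RNAi, c is control RNAi, 5 is 5 dpa and int is intact. Members 1 and 5 are higher in all libraries of fragments than in all of intact animals, and single DjTcf4 RNAi intact points (replicate 2) leave their group in members 8, 9 and 10.

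The order of the members by abundance was much alike in the 4 groups. Of the 10 members with the highest median, 8 were the same in every group. Spearman's rho between the members' group medians was 0.990 for DjTcf4 RNAi against control RNAi at 5 dpa and 0.977 for the same comparison in intact animals. It was 0.931 for 5 dpa against intact in DjTcf4 RNAi animals and 0.957 for 5 dpa against intact in control animals. These are descriptions over 200 members, which share their libraries, and the window limited the control pair.

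Replicates of a group mostly differed by more than counting allows. Over the 200 members, the median CV was 6.12% in DjTcf4 RNAi 5 dpa libraries, 13.7% in DjTcf4 RNAi intact libraries, 7.34% in control RNAi 5 dpa libraries and 6.32% in control RNAi intact libraries. At each member's mean count over all libraries, counting error alone would give a median CV of 1.08% and at most 1.47%. Without replicate 2 the DjTcf4 RNAi intact median was 6.73%, and without control RNAi 5 dpa replicate 2 the median of that group was 4.25%. A CV above 10% was found for 40 members in DjTcf4 RNAi 5 dpa, 139 in DjTcf4 RNAi intact (36 without replicate 2), 55 in control RNAi 5 dpa and 44 in control RNAi intact libraries. The comparably abundant rows outside the window had median CVs of 7.76%, 17.3%, 9.08% and 8.45% in the 4 groups in the same order.

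**Figure D3:**
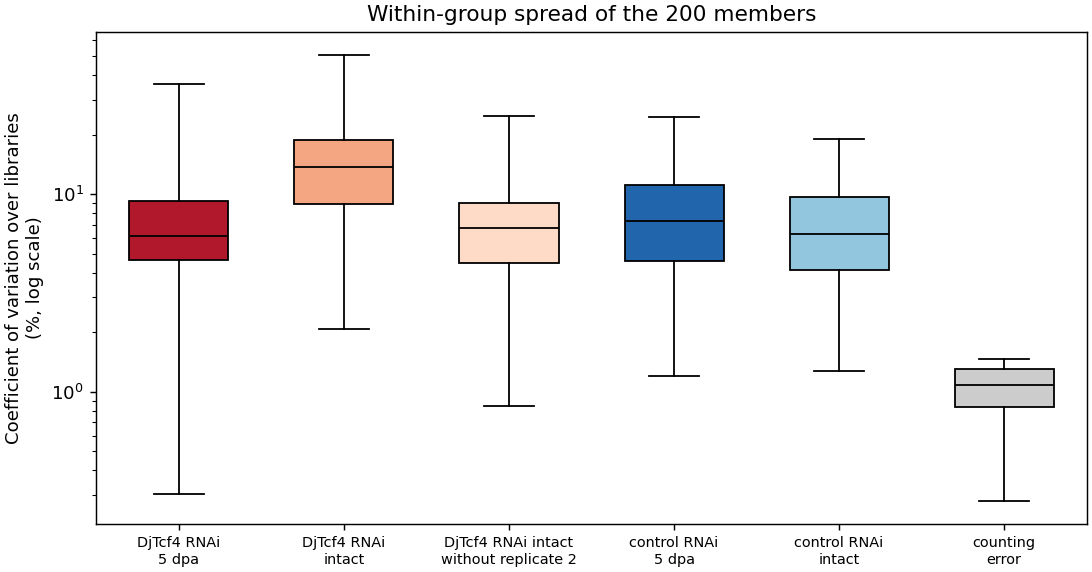
Within-group CV of the 200 members in percent, on a log axis. Boxes span the quartiles with the median as a line, whiskers reach the lowest and highest member, and the last box is the CV expected from counting alone. The median is 13.7% for DjTcf4 RNAi intact libraries and 6.73% without replicate 2, against 1.08% for counting.

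The steadiest and the least steady members were far apart. By the mean of the 4 within-group CVs, the steadiest was the member ranked 28, at 3.35%. It stood at 2130, 2194 and 2264 CPM in DjTcf4 RNAi 5 dpa libraries, against 2144, 2102, 2159 and 2018 CPM in DjTcf4 RNAi intact libraries. Control RNAi 5 dpa libraries held 2076, 2203, 2008 and 2046 CPM, against 1947, 2067, 1982 and 2086 CPM in control RNAi intact libraries. DjTcf4 RNAi intact replicate 2 did not stand apart in it. All 3 DjTcf4 RNAi 5 dpa libraries lay above all 4 control RNAi intact libraries, and every other pair of groups overlapped. The members ranked 180 and 36 followed, at 3.76% and 3.84%.

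The least steady was the member ranked 19, at 29.1%. It stood at 4007, 2139 and 2349 CPM in DjTcf4 RNAi 5 dpa libraries, against 1937, 1045, 2807 and 2287 CPM in DjTcf4 RNAi intact libraries. Control RNAi 5 dpa libraries held 2526, 4059, 3465 and 2471 CPM, against 1919, 2845, 2171 and 2802 CPM in control RNAi intact libraries. Its highest values were single libraries of both 5 dpa groups, and its group medians spanned a log2 range of 0.50. The member ranked 95, with a mean CV of 29.0%, and the member ranked 94, with 22.1%, came next.

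Differences between the groups were small, and the rule itself capped the control 5 dpa and intact difference that enters them, so the spread between groups is a description. The ratio of the highest to the lowest of the 4 group medians had a median of 1.24-fold over the members (log2 range 0.30), and it passed 2-fold for 1 member. On the log2 scale, the SD between the 4 group means had a median of 0.14 over the members, and the pooled SD within groups a median of 0.15. The SD between groups was above that within groups for 98 members, and for 123 when DjTcf4 RNAi intact replicate 2 was left out. The median SD was then 0.14 between groups and 0.10 within them. Group means accounted for a median of 48.6% of a member's variance over all 15 libraries and 62.3% over the other 14. These shares were not corrected for the number of groups, so part of each arises without any group difference. The comparably abundant rows outside the window gave 75.6% and 87.7%. The lowest of the 4 medians was found most often in control RNAi intact animals (79 members) and the highest most often in DjTcf4 RNAi fragments (90 members). DjTcf4 RNAi fragments, whose medians rest on 3 libraries, also held the lowest for 54 members. Such counts were not made over all genes, so they do not show a trait of the members.

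**Figure D4:**
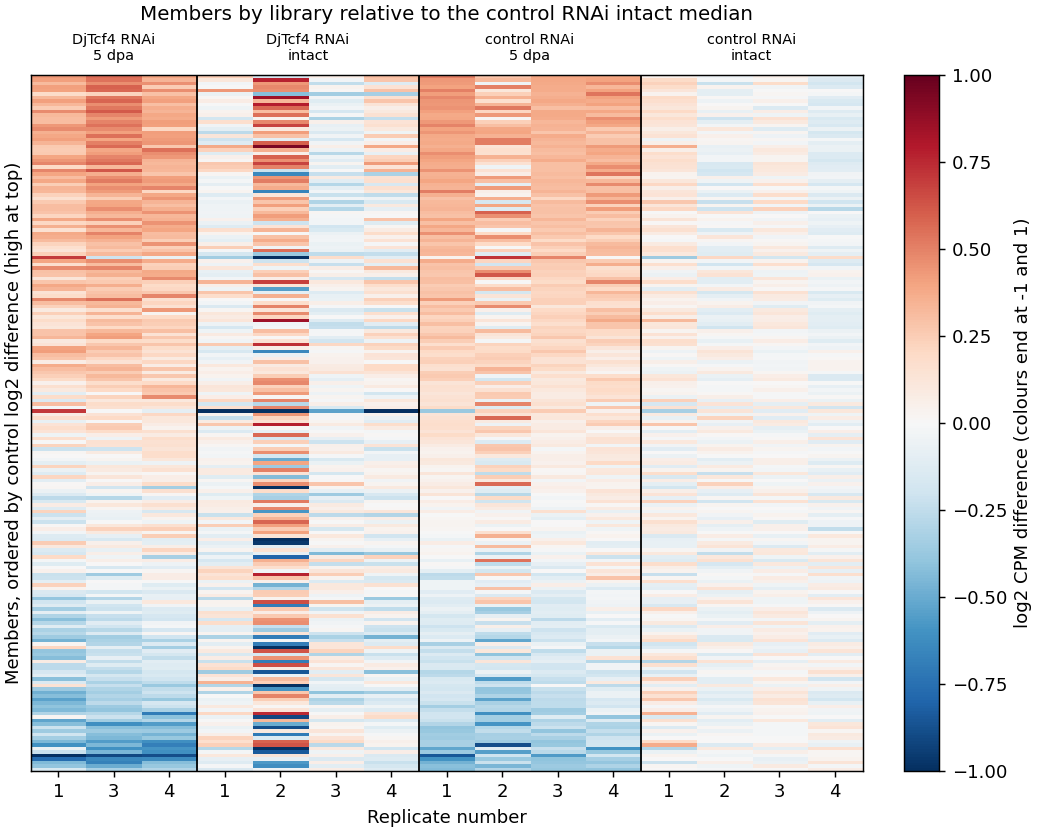
Log2 CPM of each member (rows) in each library (columns) minus its control RNAi intact median, with members ordered by their control log2 ratio and colours ending at -1 and 1. Fragments of both RNAi groups run from higher (top) to lower (bottom), and DjTcf4 RNAi intact replicate 2 holds both strong rises and strong falls scattered over the rows. The dark row near the middle is DJKW.28043, low in all 4 DjTcf4 RNAi intact libraries.

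The window was then applied to the DjTcf4 RNAi libraries, which had no part in its control ratio though they entered the ranking. By the ratio of group medians, 169 of 200 members also lay inside it there, 19 lay above and 12 below. Without intact replicate 2 the numbers were 166, 25 and 9. Among all 17094 tested genes, 13.4% lay above the window and 29.4% below it, or 15.6% and 30.9% without that replicate. Of the 110 comparably abundant rows outside the control window, 25 lay inside in DjTcf4 RNAi animals. Members had a median log2 ratio of 0.12 in DjTcf4 RNAi animals and 0.13 in control animals, and 172 members had the same sign in both. The 2 ratios share no library, and across members they had a Pearson r of 0.836 and a Spearman rho of 0.852, given as a description.

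Changes after amputation in DjTcf4 RNAi animals were tested with edgeR's quasi-likelihood model, fitted over the whole table with all 15 libraries and trimmed-mean (TMM) scaling, with calls at a Benjamini-Hochberg adjusted p under 0.05 over all tested genes. Fragments had 25 members called higher and 10 called lower, of 200, relative to intact DjTcf4 RNAi animals. Among all tested genes 6.81% were higher and 6.67% lower. The members' median log2 fold change was 0.13, against -0.05 over all genes. A called change of at least 2-fold was found for 1 member, and for 149 genes higher and 630 lower of 17094. Members had a median SE of 0.132 on the log2 scale, against 0.236 over all genes. With scaling by library size alone the split was 24 higher and 17 lower, against 6.6% and 7.39% of all genes. The 35 calls came from small changes, with a median log2 fold change of 0.45 in the members that rose and -0.47 in those that fell.

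When DjTcf4 RNAi intact replicate 2 was left out, 84 members were higher and 18 lower, all of the first 35 among them, against 17.3% and 19.3% of all genes. The count of 35 was 18, 11 and 17 without DjTcf4 RNAi 5 dpa replicates 1, 3 and 4, and 19 and 17 without DjTcf4 RNAi intact replicates 1 and 3. The share of all genes called, 13.5% with all libraries, moved as well, to 10.7%, 5.99%, 6.5%, 8.99% and 8.74% in these 5 fits. limma-voom with quality weights called 114 members and 40.7% of all genes, and DESeq2 51 members and 18.3%. edgeR fitted to the 2 DjTcf4 RNAi groups alone called 7 members and 3.49% of all genes.

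In control animals, where the rule itself bounded the change, the same fit called 52 members higher and 5 lower at 5 dpa, against 14% and 16.1% of all genes (18.4% and 22.7% without DjTcf4 RNAi intact replicate 2, when 74 and 14 members were called). These counts are a description. With scaling by library size alone they were 44 and 11, against 11.5% and 17.3% of all genes. In all, 57 were called, and the number was 11, 29 and 26 without control RNAi 5 dpa replicates 1, 3 and 4, and 34, 19, 26 and 13 without control RNAi intact replicates 1 to 4. The share of all genes called was 30.1% with all libraries and 17.4%, 26.1%, 22.5%, 28.3%, 21.2%, 23.2% and 18.8% in these 7 fits. Of the 25 members higher in DjTcf4 RNAi animals, 19 were also among the 52 called higher in control animals, and 3 of the 10 lower ones were also among the 5 called lower. Over all genes, 81.4% of those higher and 70.5% of those lower in DjTcf4 RNAi animals were called the same way in control animals. Leaving out DjTcf4 RNAi intact replicate 2, the members gave 64 of 84 higher (74 in control animals) and 13 of 18 lower (14 in control animals), against 78.1% and 84.7% of all genes. No member was called in opposite directions in either fit.

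DJKW.28043, ranked 95, had the largest rise after amputation in DjTcf4 RNAi animals. It stood at 1634, 1001 and 941 CPM in DjTcf4 RNAi 5 dpa libraries, against 467, 147, 693 and 455 CPM in DjTcf4 RNAi intact libraries. In control RNAi it stood at 775, 1174, 1196 and 1035 CPM at 5 dpa, against 797, 1097, 929 and 1082 CPM when intact. The 4 DjTcf4 RNAi intact libraries were the 4 lowest of all 15, with replicate 2 the lowest, and the other 3 groups overlapped.

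The log2 fold change of DJKW.28043 at 5 dpa over intact was 1.51 in DjTcf4 RNAi animals (SE 0.331, edgeR adjusted p = 0.00848), and 1.21 without replicate 2 (adjusted p = 0.00117). Over 23 alternatives it lay between 1.21 and 1.79, and the call ended in 1 of them, the fit to the 2 groups alone (adjusted p = 0.0837). In control animals the log2 fold change was 0.17. The difference between both responses, 1.34 (SE 0.451), had an edgeR adjusted p of 0.961 in the interaction test.

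DJKW.15674, ranked 31, had the next largest rise. It stood at 2287, 2249 and 2114 CPM in DjTcf4 RNAi 5 dpa libraries, against 1767, 1113, 1489 and 1400 CPM in DjTcf4 RNAi intact libraries. The groups did not overlap. Its log2 fold change was 0.67 (SE 0.131, edgeR adjusted p = 0.00287). Over 23 alternatives, which included leaving out DjTcf4 RNAi intact replicate 2, it lay between 0.59 and 0.76 and stayed called. It was 0.42 in control animals and was called there too. The rule bounded the ratio of control CPM medians, 0.33 on the log2 scale, and not this TMM-scaled fold change. The interaction, 0.25 (SE 0.180), was not a call (edgeR adjusted p = 0.961). Control RNAi 5 dpa libraries held 2214, 1840, 2174 and 2523 CPM, against 1791, 1550, 1851 and 1698 CPM in control RNAi intact libraries, where 1 library of fragments fell just below the highest intact library.

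DJKW.4714, ranked 22, had the largest fall. It stood at 1292, 1506 and 1536 CPM in DjTcf4 RNAi 5 dpa libraries, against 3045, 3099, 2932 and 2558 CPM in DjTcf4 RNAi intact libraries. In control RNAi it stood at 1575, 2459, 1917 and 2490 CPM at 5 dpa, against 2906, 2744, 2789 and 2880 CPM when intact. Fragments lay below intact animals in both RNAi groups without overlap, and the control fragments varied most of the 4 groups.

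The log2 fold change of DJKW.4714 was -0.97 in DjTcf4 RNAi animals (SE 0.148, edgeR adjusted p = 0.000374) and -0.35 in control animals. At 5 dpa, all 3 DjTcf4 RNAi libraries were below all 4 control libraries. The log2 fold change of DjTcf4 RNAi over control there was -0.58 (SE 0.146, edgeR adjusted p = 0.383), not a call. The interaction, -0.62 (SE 0.197), was not a call either (edgeR adjusted p = 0.961).

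DJKW.22984, ranked 149, had the next largest fall. It stood at 445, 413 and 396 CPM in DjTcf4 RNAi 5 dpa libraries, against 683, 913, 694 and 629 CPM in DjTcf4 RNAi intact libraries, and in control RNAi at 485, 474, 463 and 532 CPM at 5 dpa, against 690, 608, 607 and 590 CPM when intact. Neither pair overlapped. Its log2 fold change in DjTcf4 RNAi animals was -0.77 (SE 0.145, edgeR adjusted p = 0.00203), and -0.61 without replicate 2.

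Of the 10 most abundant members, the ones ranked 1 and 5 were called in DjTcf4 RNAi animals. Both were also called in control animals, with TMM-scaled log2 fold changes of 0.39 and 0.38. The rule bounded their ratios of control CPM medians, which were 0.29 and 0.26 on the log2 scale. In DjTcf4 RNAi animals their log2 fold changes were 0.40 (SE 0.109, edgeR adjusted p = 0.0234) and 0.46 (SE 0.0980, edgeR adjusted p = 0.00514). For the first, adjusted p ran between 0.000401 and 0.121 over 23 alternatives and lay above 0.05 in 5, which included leaving out DjTcf4 RNAi 5 dpa replicate 3 (adjusted p = 0.121) or DjTcf4 RNAi intact replicate 1 (0.0573) or 3 (0.0673). The second ended in the fit to the 2 groups alone (adjusted p = 0.0595). The other 8 had log2 fold changes between -0.40 and 0.28 in DjTcf4 RNAi animals and were not called there. DJKW.5248, the member ranked 7 and DJKW.17520 were called without DjTcf4 RNAi intact replicate 2, with log2 fold changes of 0.35, 0.39 and -0.35 (edgeR adjusted p = 0.0109, 0.00807 and 0.0114). DJKW.22858, at -0.33 (SE 0.120, edgeR adjusted p = 0.0760), was called with scaling by library size alone (adjusted p = 0.0112), by DESeq2 (0.0412) and by limma-voom (0.0216), and over its alternatives adjusted p ranged from 0.0112 to 0.198. DJKW.4524 was called in 1 alternative, scaling by library size alone (adjusted p = 0.0369, range to 0.247), and DJKW.24270 in 1, limma-voom (adjusted p = 0.0411, range to 0.991).

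**Figure D5:**
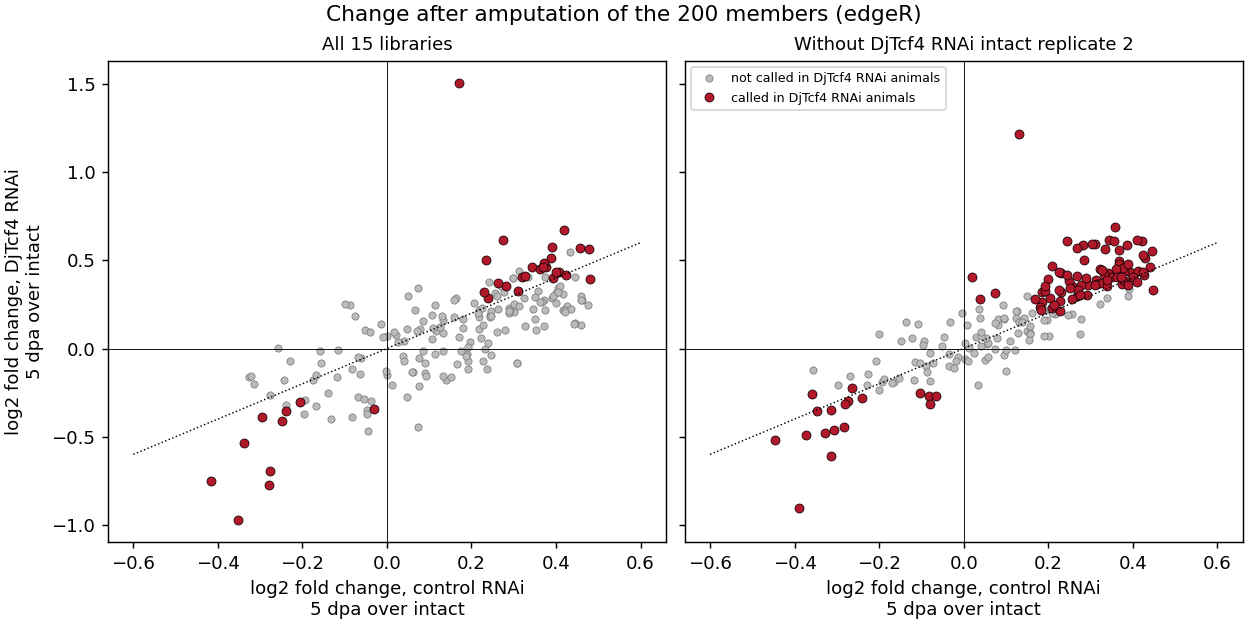
Log2 fold change of each member at 5 dpa over intact, DjTcf4 RNAi animals (vertical) against control animals (horizontal), from edgeR with all 15 libraries (left) and without DjTcf4 RNAi intact replicate 2 (right). Red points were called in DjTcf4 RNAi animals (35 left, 102 right) and the dotted line marks equal changes. The rule bounded the control ratio of CPM medians between -0.4 and 0.4, which limits the horizontal spread. On the edgeR scale the members ran from -0.417 to 0.480 on the left. DJKW.28043 is the point at 1.51 on the left and 1.21 on the right.

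DjTcf4 RNAi was then compared with control RNAi at each stage. The control libraries of these comparisons also chose the members. In intact animals edgeR called 0 members higher and 0 lower, with 5 higher and 7 lower at an unadjusted p under 0.05. The calls over all genes came to 0% higher and 0.0117% lower, and 4.47% and 2.54% had an unadjusted p under 0.05. In fragments edgeR also called 0 members in either direction, with 0 higher and 3 lower at an unadjusted p under 0.05, against 0.00585% of all genes called higher and 0.041% lower, and 1.05% and 2.18% at the unadjusted threshold. Leaving out DjTcf4 RNAi intact replicate 2, no member was called by edgeR in either comparison, with 0 higher and 23 lower at an unadjusted p under 0.05 in intact animals and 0 and 9 at 5 dpa. All genes then gave calls of 0% and 0.136% in intact animals and 0.0177% and 0.148% at 5 dpa. At the unadjusted threshold they gave 2.02% higher and 3.39% lower in intact animals, and 1.95% and 3.10% at 5 dpa. A count of 0 members called is thus near the background, while 23 of 200 lower at the unadjusted threshold is a larger share than over all genes. In that fit the members' median SE was 0.0902, against 0.197 over all genes. Their median log2 fold change was -0.046, against -0.024, and its median size, sign ignored, was 0.067, against 0.137. The part of the smaller SE in the 23 was not tested.

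The members' median log2 fold change with DjTcf4 RNAi was 0.05 in intact animals, against 0.02 over all genes, and -0.02 at 5 dpa, against -0.00187 over all genes. Members ranged from -1.17 to 0.41 in intact animals and from -0.58 to 0.16 at 5 dpa. The median size of the change, sign ignored, was 0.113 and 0.0553 in the members, against 0.203 and 0.132 over all genes. At -1.17, DJKW.28043 was the lowest in intact animals (SE 0.311, edgeR adjusted p = 0.468), and -0.91 without replicate 2 (adjusted p = 0.264).

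Other tools called 4 members lower with DjTcf4 RNAi and 0 higher, and these are named after their values were seen. Over all genes these tools also called more lower than higher. DESeq2 called 0.0351% of all genes higher and 0.176% lower in intact animals, and limma-voom 0.0234% and 0.228% in intact animals and 0.0527% and 0.275% at 5 dpa. DESeq2 called DJKW.28043 (log2 fold change -1.19, adjusted p = 0.0351) and the member ranked 65 in intact animals. The member ranked 65 held 1167, 901, 1164 and 1047 CPM in DjTcf4 RNAi intact libraries, against 1567, 1311, 1524 and 1382 CPM in control RNAi intact libraries. These groups did not overlap, with a log2 fold change of -0.47 in DESeq2 (adjusted p = 0.0150), -0.42 in limma-voom (adjusted p = 0.0168) and -0.44 in edgeR (adjusted p = 0.351). limma-voom also called the member ranked 191 in intact animals (-0.39, adjusted p = 0.0342) and the member ranked 100 at 5 dpa (-0.32, adjusted p = 0.0406). The member ranked 100 held 732, 720 and 811 CPM in DjTcf4 RNAi 5 dpa libraries, against 880, 1005, 865 and 927 CPM in control RNAi 5 dpa libraries, without overlap. DESeq2 called 0 members at 5 dpa, with 0 higher and 3 lower at an unadjusted p under 0.05. Over all genes it called 0.0234% higher and 0.211% lower there, with 1.07% and 2.11% at the unadjusted threshold.

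No member's response to amputation was called as different between DjTcf4 RNAi and control animals. The edgeR interaction test gave 0 members, with 5 at an unadjusted p under 0.05, and 0 and 7 without DjTcf4 RNAi intact replicate 2. Over all genes it called 0.00585%, with 3.47% at an unadjusted p under 0.05, and 0.0177% and 3.43% without that replicate, so the members' counts are near the background. A p that misses the threshold does not show that the responses were alike. Nor was the test run with another tool.

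A fractional count appears where the deposited estimate was not a whole number, and values of such rows are less certain where the counting split reads among look-alike rows. At least 1 library had a fractional count in 40 of 200 members, and all 15 had one in 28. Of the comparably abundant rows outside the window, 27 of 110 (24.5%) had one, and of all tested genes 19.0%. The 10 most abundant members included 7 such rows, those ranked 1, 2, 3, 4, 7, 8 and 10. None of DJKW.28043, DJKW.15674, DJKW.4714 and DJKW.22984 had one.

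The bounds of the rule fell among closely spaced values. The members ranked 23 and 169 lay just inside the upper bound with log2 ratios of 0.394 and 0.393, and the nearest abundant rows outside it had 0.405 and 0.410. The members ranked 135 and 98 lay just inside the lower bound, both at -0.389, and the nearest rows outside it had -0.405 and -0.410. In abundance the last 2 members averaged 451.1 and 450.9 CPM, and the next 2 rows inside the window 449.9 and 449.6 CPM.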

How the data were processed

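Poly(A) RNA sequencing libraries of 4 groups were analysed from 1 table of expected counts per gene deposited by the authors. Tools listed without role or version are RSEM, Bowtie2, HISAT2 and DESeq2, per the submitters' processing notes. The genome build is not given in the sources used here, nor is the gene annotation. Of the values, 8.23% were fractional. They were rounded for tests and left as deposited for CPM. Library totals ran from 8136366 to 12224216 counts. At a member's mean count over all libraries the Poisson counting error was up to 1.47%, and it is larger where a library's count is below that mean. PCR duplicates can make the true error larger.

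Genes passed edgeR's filterByExpr (minimum count 10, minimum total 15), leaving 17094. edgeR 4.0.16 in R 4.3.3 fitted 1 coefficient per group with TMM factors, and each SE is approximate, from the log2 fold change over √F. DESeq2 1.42.0 and limma 3.58.1 served as alternatives, along with other scalings, filters, a replicate block and leaving out libraries. The fit was also run on simulated counts with the same spread for all genes and no library standing apart. That run does not measure how the fit performs on these libraries. Replicates differed beyond sampling noise (chi-square over degrees of freedom from 3.65 to 73.8 in 21 pairs).

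Named were the 10 most abundant members, the 2 largest rises and falls called in DjTcf4 RNAi animals, the 3 steadiest and 3 least steady, and rows at the bounds of the rule. Members called only by another tool were added after their values were seen. Members and lists were chosen with earlier results of these data known.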

Additional observations from a re-analysis of the deposited data

Results flagged for a closer look

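In 3 of the 10 most abundant members, DjTcf4 RNAi intact replicate 2 lay far from the other 3 libraries of its group. DJKW.24270 had 6883 CPM in it and 5006 to 5193 CPM in the others. DJKW.4524 stood at 6428 CPM, against 4229 to 4543 CPM. DJKW.17520 stood at 2604 CPM, against 4511 to 4876 CPM. By chance, about 1 in 20 groups would hold such a library. The number of group values looked at was 66, many of them related, and all came from the groups of 4 libraries. The 3 marked of 66 are near the rate of 1 in 20, so their number alone does not set this library apart. The DjTcf4 RNAi 5 dpa group, with 3 libraries, was too small for this rule and was not looked at. No other library was marked in the groups that were.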

How the results depend on the processing

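Member choice: the same 200 rows were kept with DJKW column sums, 189 with group means, 196 when ranked on controls, 172 with TMM-scaled CPM, 137 when the 200 most abundant rows were taken first, and 172 to 199 with a library left out. Members called at 5 dpa over intact in DjTcf4 RNAi animals (35) numbered 114 with limma-voom and 7 with the compared groups alone. At 2-fold there was 1, and leaving out a library gave 11 to 102. Over all genes the shares were 40.7% with limma-voom, 3.49% with the compared groups alone and 5.99% to 36.6% with a library left out. At 2-fold, 149 of 17094 genes were higher and 630 lower. In control animals (57), limma-voom gave 115 (47.3% of all genes), and leaving out a library gave 11 to 88 (17.4% to 41.2%). The 2-fold threshold gave 0 members, against 191 genes higher and 1724 lower of 17094. For DjTcf4 RNAi over control, DESeq2 and limma-voom gave 2 each in intact animals (0 in edgeR) and limma-voom 1 at 5 dpa (0), with 0 in all 15 fits that left out a library. The replicate block gave 25, 46, 0 and 0 calls in these 4 comparisons, against 13%, 28.1%, 0.00585% and 0.0234% of all genes. Whether its numbers pair the libraries was not settled. Over all rows of at least 1 CPM, same-numbered libraries had a median correlation of deviations of -0.103. Of 15 libraries, 0 correlated best with their own number (-0.0901 and 3 over the members alone). Single same-numbered pairs ran from -0.427 to 0.392, with 5 of 21 above 0.1, so the median cannot exclude pairing of some libraries. The call of the most abundant member ended under the block (adjusted p = 0.0550). The log2 fold change of DJKW.16037 turned positive with limma-voom (0.0395) and without DjTcf4 RNAi intact replicate 2 (0.0667), ranging from -0.23 with a library left out. That of DJKW.24270 was -0.0126, -0.0293 and -0.00632 without DjTcf4 RNAi intact replicates 1, 3 and 4, with a highest value of 0.20. The 4 named rises and falls kept their sign in all 23 alternatives each. They were chosen as the largest called changes of this same comparison and the alternatives reuse its libraries, so this was nearly fixed in advance. Without the 10 most abundant members, the median shares were 20.6% (DjTcf4 RNAi 5 dpa), 19.4% (DjTcf4 RNAi intact), 20.6% (control RNAi 5 dpa) and 19.4% (control RNAi intact), and leaving out a library gave 28.1% to 28.5%, 26.80% to 26.83%, 27.9% to 28.6% and 25.9% to 27.2% with all members. The median CV ranged over 4.14% to 6.91%, 6.73% to 15.8%, 4.25% to 7.91% and 5.67% to 7.18% in the same order. The cause of these differences was not tested beyond the fewer libraries, members or larger fold that make them. At the members' mean counts the median counting CV was 1.08%, and the part of depth in the shares was not tested.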
